A study of Rattus norvegicus with 12 samples.

Results

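The comparison described here is the interaction of fat level with oil type in rat liver, that is, the fat effect with corn oil (70% minus 5% fat) minus the fat effect with olive oil. It used all 12 of the 12 arrays and 8740 of the 8799 probe sets, every one that is not an array control, and these gave 4736 genes with 1 value each. No gene was chosen by its values to enter the comparison. The 4 diets, named Corn_oil_fed_5perc, Corn_oil_fed_70perc, Olive_oil_fed_5perc and Olive_oil_fed_70perc, had 3 arrays each. Male Sprague-Dawley rats weighing 150 g at the start were fed for 21 days through a stomach cannula (total enteral nutrition) and overfed by 17% in calories. All 4 groups were therefore overfed, and a group fed without surplus was not among the arrays. Corn oil is rich in polyunsaturated and olive oil in monounsaturated fatty acids. The diets were isocaloric, so that a diet with more fat held less carbohydrate. Each array held a pool of liver RNA (8 ug), how many rats each pool combined is not given in the labels, and p-values measure the spread between pools.

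Linoleic acid, the main polyunsaturated fatty acid of corn oil, is known to lower the liver's fatty acid synthesis genes through the transcription factor SREBP-1c, whereas carbohydrate raises them through insulin, SREBP-1c and ChREBP. Fatty acids of either oil can activate PPARA, the nuclear receptor behind many fatty acid oxidation genes. Oleic acid, the main fatty acid of olive oil, is also the product of stearoyl-CoA desaturase.

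A value below is a log2 difference from the probe set's median over the 12 arrays, so no absolute level is known and levels of different genes cannot be compared. For the same reason the levels of hepatocyte markers could not be checked. A positive interaction means that the 70% minus 5% difference was more positive with corn oil than with olive oil. The same number is the corn minus olive difference at 70% fat minus that at 5% fat. The fat effects with corn and with olive oil share no array. Array controls for the 2 ends of the actin and GAPDH mRNAs differed between the oils. The 3'/5' index, the mean of 3' minus 5' values over both transcripts, was 1.28 ± 0.28 (SD, n = 3) with 5% corn oil and 0.715 ± 0.48 with 70% corn oil. It was -0.364 ± 0.058 with 5% olive oil and -0.346 ± 0.10 with 70% olive oil. The index thus had an interaction of its own, of -0.58, and values of genes refitted with it as a covariate are given below where they differ by more than 1.5 times or in sign. Such a refit uses the spread of the index within diets, which was larger with corn oil, so these values rest mainly on the corn oil arrays. The replicate spread also differed, with a median SD over genes within a diet of 0.111 (5%) and 0.149 (70%) for corn oil against 0.0845 (5%) and 0.0915 (70%) for olive oil.

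**Figure D1:**
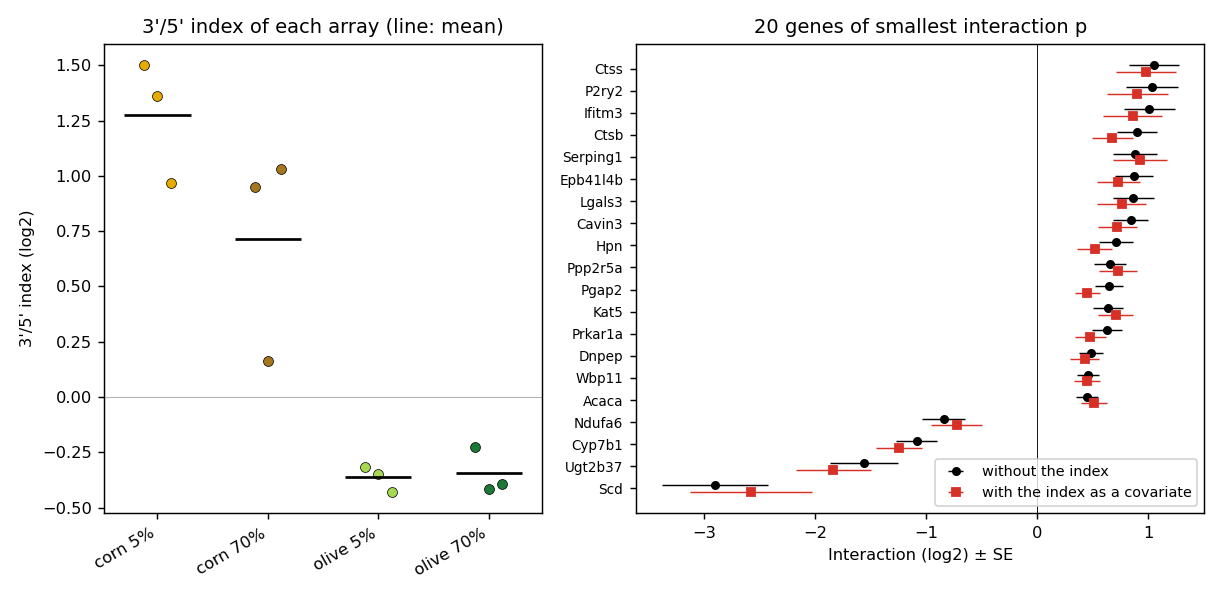
Left, 3'/5' index of each array (log2 units, points are arrays and lines are the means of the 3 arrays of a diet), and right, the interaction of the 20 genes with the smallest p (log2, ± SE) without and with the index as a covariate. The corn oil arrays sit between 0.161 and 1.5 and the olive oil arrays between -0.428 and -0.228.

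No gene passed the threshold for a fat effect that differed between the oils. With limma, 0 of 4736 genes (0%) had an adjusted p under 0.05, and the lowest adjusted p was 0.168. At an unadjusted p under 0.05 there were 565 genes (11.9%), of which 279 (5.89%) were positive and 286 (6.04%) negative. Of probe sets, 0 of 8740 passed and 1028 (11.8%) had an unadjusted p under 0.05, 475 (5.43%) positive and 553 (6.33%) negative. The interaction was measured with a median standard error (SE) of 0.149, with 0.112 and 0.241 at the 10th and 90th percentiles. Within each oil, 120 genes (2.53%) passed for the fat effect with corn oil and 26 (0.549%) with olive oil. The count with corn oil was 24 after a second quantile normalization and 23 with the index as a covariate. The count with olive oil was 49 and 30 in the same settings, so that it was the higher in both. Both passed in 18 genes, in the same direction in all 18, and of the 128 that passed with either oil 108 had fat effects of the same sign. Among all genes 47.1% had fat effects of opposite sign. Over all genes 44.5% of interactions were positive and 55.5% negative, and the lists below are read against these shares and the 11.9%. Across the 4736 genes, which are not independent replicates, Pearson's r between both fat effects was 0.45.

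Among the 565 genes with an unadjusted p under 0.05, 457 (80.9%) had fat effects of opposite sign in the 2 oils, against 47.1% of all genes. In 404 (71.5%) the oils differed more at 5% than at 70% fat, against 59.3% of all genes. These shares follow in part from how the contrast is built and are given as a description. The index differed in the same way, with the corn and olive arrays farther apart at 5% than at 70% fat, and its part in these shares was not tested.

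**Figure D2:**
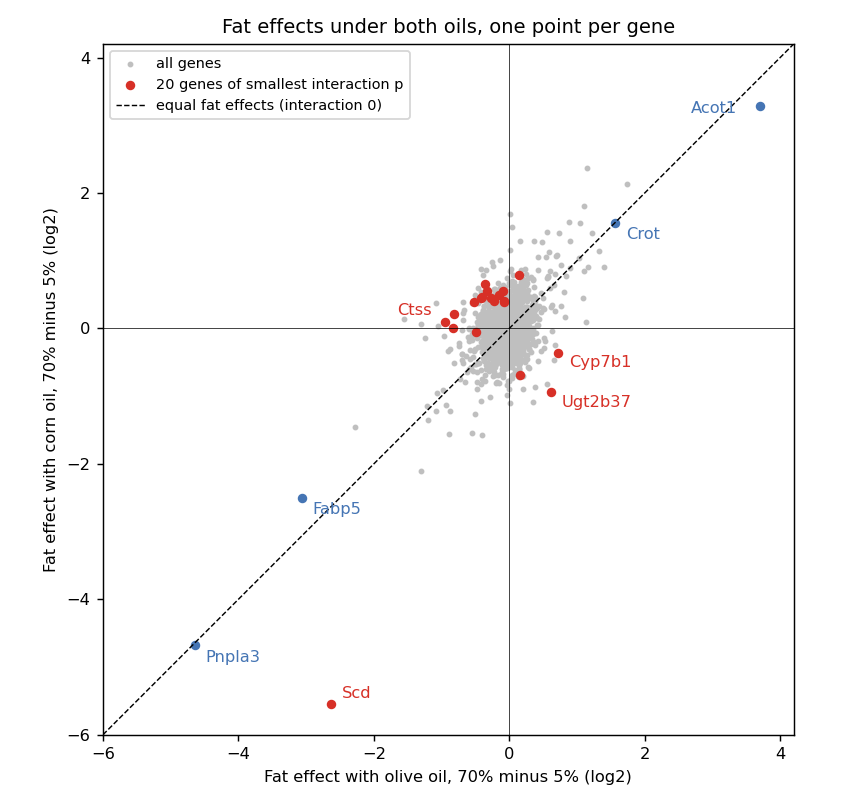
Fat effect (70% minus 5% fat, log2) with olive oil on the horizontal axis against that with corn oil on the vertical axis, 1 point per gene (4736 genes). The 20 genes of smallest interaction p are in red, and a dashed line marks where both fat effects are equal. Blue marks Pnpla3, Acot1, Crot and Fabp5, whose 95% intervals of the interaction include 0. Scd, at -2.64 with olive and -5.54 with corn oil, lies far below the line, and Pnpla3, at -4.64 and -4.68, lies on it.

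Scd, stearoyl-CoA desaturase, which makes oleic from stearic acid, had the smallest p of the interaction. Its values were 1.51, 1.18 and 1.34 with 5% corn oil and -3.11, -4.70 and -4.77 with 70% corn oil. They were 1.69, 1.26 and 1.26 with 5% olive oil and -1.38, -1.0 and -1.32 with 70% olive oil. The 5% diets overlapped, and all 3 arrays of 70% corn oil lay below all 3 of 70% olive oil. Scd fell 46.5-fold with fat from corn oil (log2 -5.54, adjusted p = 4.82e-06) and 6.22-fold with fat from olive oil (log2 -2.64, adjusted p = 0.00389). The interaction was -2.90 ± 0.48 (SE), with a 95% interval from -3.94 to -1.86, and did not pass (adjusted p = 0.168). At 70% fat corn minus olive was -2.96 (adjusted p = 0.00194), and at 5% it was -0.06 (adjusted p = 0.925). The 2 Scd probe sets gave interactions of -2.58 and -3.22, the latter with an adjusted p of 0.079 over all probe sets. Without the first 70% corn oil array, the least low of its group, the interaction was -3.44 and its adjusted p over all genes was 2.16e-05. In every other fit of 1 value per gene Scd did not pass. With the index as a covariate its interaction was -2.58 (adjusted p = 0.552). The probe set rc_AI175764_s_at passed in 4 of the other fits of all arrays, with an adjusted p of 0.0332 with array weights, 0.0448 with the pool number as a replicate block, 0.0282 without the 25% of smallest SD and 0.0471 with weights per oil.

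Scd2, the related desaturase, had an interaction of 0.04 (95% interval -0.21 to 0.28, and 0.09 with the index as a covariate), with 1 of its 6 probe sets at 0.49 and the other 5 below 0, and fat effects of -0.21 with corn and -0.24 with olive oil, neither of which passed. Pnpla3, a lipid droplet protein that responds to carbohydrate feeding, fell by nearly the same amount in both oils. Its values were 3.02, 1.28 and 1.76 with 5% corn oil, -2.19, -3.16 and -2.62 with 70% corn oil, 2.85, 2.38 and 2.45 with 5% olive oil, and -2.50, -2.48 and -1.28 with 70% olive oil. The arrays of the 2 oils overlapped at both fat levels. The fat effects were -4.68 (adjusted p = 0.000107) and -4.64 (adjusted p = 0.000233). The interaction was -0.03, with a 95% interval from -1.33 to 1.26, so a difference of 1 log2 unit either way lies within it. It was 0.51 with the index as a covariate.

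Scd and Pnpla3 had the largest fat effects among the lipogenic genes. As point estimates these were unequal between the oils for Scd and close for Pnpla3. The Scd interaction did not pass (adjusted p = 0.168), and the Pnpla3 interaction had a 95% interval from -1.33 to 1.26. Whether the interactions of Scd and Pnpla3 differ from each other was not tested. The promoter windows of both genes are shown because of these point estimates, chosen after the values had been seen. Each window runs from 250 bases before to 50 bases after the start site in RefSeq (GRCr8), at chr1:253231682-253231981 on the minus strand for Scd and chr7:117173278-117173577 on the plus strand for Pnpla3. Capitals mark matches to the CCAAT box on either strand.
Scd: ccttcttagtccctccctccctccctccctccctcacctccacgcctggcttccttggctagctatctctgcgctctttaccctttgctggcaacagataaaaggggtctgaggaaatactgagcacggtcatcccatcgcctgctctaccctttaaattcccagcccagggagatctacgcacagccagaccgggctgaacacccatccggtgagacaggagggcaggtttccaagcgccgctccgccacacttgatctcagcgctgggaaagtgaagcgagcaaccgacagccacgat
Pnpla3: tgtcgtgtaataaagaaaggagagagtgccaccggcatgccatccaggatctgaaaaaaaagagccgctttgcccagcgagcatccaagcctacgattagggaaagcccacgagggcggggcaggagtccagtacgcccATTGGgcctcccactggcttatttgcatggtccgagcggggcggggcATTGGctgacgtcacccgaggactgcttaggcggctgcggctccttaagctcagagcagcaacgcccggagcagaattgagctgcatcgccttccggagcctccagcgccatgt
Searched on both strands were the E-box (CACGTG), the CCAAT box (CCAAT), a nuclear receptor element (AGGTCA), the direct repeat of that element with 1 base between, which overlaps it, and part of a sterol element (TCACNCCAC). The Pnpla3 window held 2 matches to the CCAAT box, beginning 111 and 64 bases before the start site, and no other match. No match was found in the Scd window, which says only that these letters are not in it. Of 33469 promoter windows of this length, 37.5% held the CCAAT box, 6.42% the E-box, 16.2% the nuclear receptor element, 1.12% the sterol element and 0.0538% the direct repeat.

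Of the 12 measured genes of fatty acid synthesis, 9 had a positive and 3 a negative interaction, 4 (33.3%, against 11.9% of all genes) had an unadjusted p under 0.05 (3 positive, 1 negative), and the median was 0.11 against -0.03 over all genes. With the index as a covariate the median was 0.0316. Acaca, acetyl-CoA carboxylase, the first committed step, was -0.12, -0.28 and -0.23 with 5% corn oil and -0.23, -0.30 and -0.22 with 70% corn oil. It was 0.68, 0.68 and 0.66 with 5% olive oil and 0.18, 0.12 and 0.25 with 70% olive oil. The corn oil arrays overlapped between fat levels, and all 3 arrays of 5% olive oil stood above every other array. Acaca fell with fat from olive oil (log2 -0.49, adjusted p = 0.00722), and its fat effect with corn oil was -0.05. The interaction was 0.45 ± 0.10 (95% interval 0.23 to 0.67, adjusted p = 0.205). Gpam, the first enzyme of glycerolipid synthesis, had the same layout of arrays, with an interaction of 0.43, and is named after its values were seen. Its fat effects of 0.07 with corn and -0.36 with olive oil (adjusted p = 0.765 and 0.192) did not pass.

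Fasn, fatty acid synthase, fell with both oils, by 1.45 on the log2 scale with corn (adjusted p = 0.00917) and by 2.27 with olive oil (adjusted p = 0.000891). Its interaction was 0.82 ± 0.34, with an adjusted p of 0.378. The 2 Fasn probe sets disagreed. M76767_s_at gave fat effects of -2.63 with corn and -2.41 with olive oil and an interaction of -0.23. X13527cds_s_at gave -0.28 and -2.14 and an interaction of 1.86 ± 0.33 (adjusted p = 0.255 over all probe sets), and passed with array weights (adjusted p = 0.0332) and without the third 5% corn oil array (adjusted p = 0.0272). On X13527cds_s_at the arrays of 5% corn oil read -0.78, -0.77 and -0.07 and those of 5% olive oil 2.61, 2.77 and 2.40, whereas M76767_s_at read 1.48, 0.46 and 1.52 with 5% corn oil and 1.79, 1.73 and 1.44 with 5% olive oil. The 5% groups thus overlapped on 1 Fasn probe set and lay apart on the other. Acly, ATP citrate lyase, also disagreed over its 3 probe sets (-0.55, -0.68 and 0.65). Its mean fell with both oils, by 1.12 and 0.93, with an interaction of -0.19 (95% interval -0.62 to 0.24). Me1, malic enzyme, which supplies NADPH, fell with corn oil (log2 -1.15, adjusted p = 0.0405) and had a fat effect of -1.22 with olive oil that did not pass (adjusted p = 0.068), with an interaction of 0.07 (-0.73 to 0.87), or -0.33 with the index, and values from -0.49 to 0.78 over its 5 probe sets. Srebf1, which encodes SREBP-1, had fat effects of 0.13 and 0.06 and an interaction of 0.07 (-0.68 to 0.82), or -0.20 with the index.

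**Figure D3:**
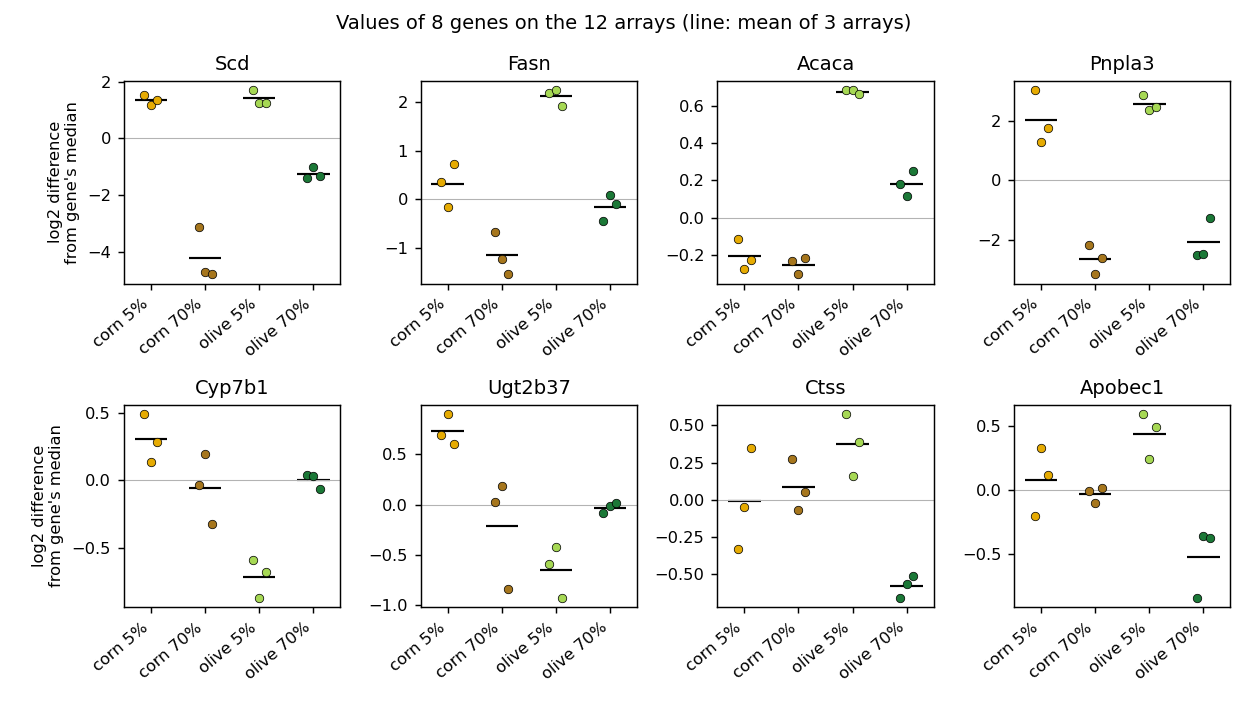
Values of 8 genes on each array (log2 difference from the gene's median, points are arrays, lines are the means of the 3 arrays of a diet, and each panel has its own axis range). In the Scd panel the 3 arrays of 70% corn oil sit between -4.77 and -3.11 and those of 70% olive oil between -1.38 and -1.0.

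Of the 14 measured genes of glycolysis, fructose use and the pentose phosphate pathway, 5 (35.7%, against 11.9% of all genes) had an unadjusted p under 0.05, 4 of them negative, and the list median was -0.02. With the index as a covariate the count was 1 and the median was -0.154. Pklr, liver pyruvate kinase, fell by 2.11 with corn (adjusted p = 0.000933) and by 1.3 with olive oil (adjusted p = 0.0394), with an interaction of -0.80 ± 0.35 (adjusted p = 0.4). Khk, ketohexokinase, which traps fructose, was 0.96, 0.64 and 0.67 with 5% corn oil and 0.04, -0.14 and -0.34 with 70% corn oil. It was 0.33, 0.34 and -0.04 with 5% olive oil and -0.30, -0.31 and -0.20 with 70% olive oil. All 3 arrays of 5% corn oil lay above the rest and the 70% diets overlapped. Khk fell with corn oil (log2 -0.90, adjusted p = 0.00296), its fat effect with olive oil was -0.48 (adjusted p = 0.188), and the interaction was -0.42 (-0.82 to -0.03). Tkfc, triokinase, the next fructose enzyme, fell by 1.26 with corn oil and had a fat effect of -0.50 with olive oil that did not pass. Slc2a2, the liver glucose transporter, had an interaction of -0.44, with neither fat effect passing. Taldo1, transaldolase, named after its values were seen, was the positive gene, at 0.37. Slc2a5, the fructose transporter, fell with both oils, by 1.22 and 0.87, with an interaction of -0.34 (-0.71 to 0.03) that was -0.82 on 1 probe set and 0.13 on the other.

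The 38 measured members of the fatty acid oxidation list, which includes PPARA targets, had a median fat effect of 0.36 with corn and 0.38 with olive oil. The median interaction was 0.00 to 2 decimals. It was -0.101 with the index as a covariate, reached 0.158 at most, and kept its sign in 14 of the 23 alternatives. At an unadjusted p under 0.05 there were 4 positive and 1 negative gene, a share of 13.2% that is near the 11.9% of all genes. Cpt1a, which admits long-chain fatty acids to mitochondria, was -1.40, -0.75 and -1.38 with 5% corn oil and -0.07, -0.01 and 0.81 with 70% corn oil. With olive oil it was -0.64, 0.01 and 0.14 at 5% fat and 0.43, 0.45 and 0.29 at 70% fat. The arrays of 5% corn oil were the lowest and the 70% diets overlapped. Cpt1a rose with corn oil (log2 1.42, adjusted p = 0.0124), its fat effect with olive oil was 0.56 (adjusted p = 0.594), and the interaction was 0.87 (0.09 to 1.65, adjusted p = 0.376). Cyp4a1, which omega-hydroxylates fatty acids, rose with both oils, by 1.81 and 1.11, with an interaction of 0.70 that was 0.24 with the index as a covariate. Eci1, an isomerase needed for unsaturated fatty acids, rose by 1.29 and 0.90, with an interaction of 0.39 (0.08 to 0.70) that ran from 0.07 to 0.89 over its 4 probe sets. Ech1, another such isomerase, rose by 1.58 with corn oil, had a fat effect of 0.88 with olive oil that did not pass, and an interaction of 0.70 (-0.02 to 1.41), or 0.39 with the index. Echs1, enoyl-CoA hydratase, named after its values were seen, had 0.40 (0.02 to 0.78), or 0.26 with the index.

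Cyp4a3, of the same omega-hydroxylase family as Cyp4a1, was the negative gene of the list. It was 0.76, 0.89 and 0.49 with 5% corn oil and 0.44, -0.63 and -0.25 with 70% corn oil, and -0.15, -0.34 and -0.36 with 5% olive oil and 0.43, 0.15 and -0.28 with 70% olive oil. Its 5% corn oil arrays stood above all others. The interaction was -1.25 ± 0.33 (adjusted p = 0.229), or -0.78 when the index was a covariate, and neither of its fat effects passed. Members of a cytochrome family can share probes, so that each value may hold signal of a relative. Acot1, an acyl-CoA thioesterase, rose with both oils, by 3.28 (adjusted p = 0.0191) and 3.70 (adjusted p = 0.0228). Its interaction of -0.42 had a wide interval of -2.38 to 1.54, since arrays of 70% fat ran from 0.76 to 3.36 with corn and from 1.3 to 3.92 with olive oil. With the index as a covariate it was -1.41. Crot, which moves acyl groups out of peroxisomes, rose by 1.56 in each oil, with an interval of the interaction from -0.89 to 0.89. Its 2 probe sets gave 0.37 and -0.38, and with the index as a covariate their mean was -0.37.

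Fatty acid uptake and lipid droplet genes were mixed, with 2 positive and 2 negative among 20 measured at an unadjusted p under 0.05 (20%, against 11.9% of all genes) and a median of 0.14. Slc27a2, which imports and activates fatty acids, was -0.29, -0.39 and -0.23 with 5% corn oil and 0.31, 0.40 and 0.57 with 70% corn oil. With olive oil it was -0.37, -0.02 and -0.01 at 5% fat and 0.09, 0.12 and 0.01 at 70% fat. No array of 5% corn oil reached any array of 70% fat. Slc27a2 rose with corn oil (log2 0.73, adjusted p = 0.00331), its fat effect with olive oil was 0.21, and the interaction was 0.52 (0.20 to 0.85, adjusted p = 0.258). Fabp4, the adipocyte fatty acid binding protein, had an interaction of -0.39. Fabp5, a relative of Fabp4, fell with both oils, by 2.51 and 3.06, with an interaction of 0.56 (-0.18 to 1.3). Cidea, a lipid droplet protein, rose by 1.41 with corn oil, had a fat effect of 0.74 with olive oil that did not pass, and an interaction of 0.67 (-0.06 to 1.40), or 0.42 with the index.

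Cholesterol synthesis had the highest median interaction of the 28 pathway lists, at 0.51 against -0.03 over all genes. Of 14 measured genes 12 were positive (85.7%, against 44.5% of all genes) and 4 had an unadjusted p under 0.05 (28.6%, against 11.9%), all positive. The median fat effect was 0.15 with corn and -0.33 with olive oil, and 0 of the 14 passed for either. Acat2, which joins acetyl-CoA units at the start of the pathway, was -0.02, -0.17 and 0.02 with 5% corn oil and 0.73, 0.21 and 0.03 with 70% corn oil. It was 0.64, -0.15 and 0.83 with 5% olive oil and -0.63, -1.10 and -0.22 with 70% olive oil. The 70% olive oil arrays were below all others, and the 5% diets overlapped. Its interaction was 1.47 ± 0.37 (0.66 to 2.27, adjusted p = 0.229). Lss, lanosterol synthase, had 0.63 (0.24 to 1.03, adjusted p = 0.258), with fat effects of 0.21 and -0.42 and 0.78, 0.23 and 0.88 on its 3 probe sets. Msmo1 and Sqle, a later and an earlier sterol enzyme named after their values were seen, had 1.2 (0.16 to 2.25), or 0.77 with the index as a covariate, and 1.18 (0.01 to 2.34). The arrays within a diet were far apart for both, with Sqle at 0.19, -0.93 and 0.59 in 5% olive oil. The list mean by array ran from -0.201 to 0.0275 in 5% corn oil, from -0.315 to 0.431 in 70% corn oil, from -0.241 to 0.347 in 5% olive oil and from -0.465 to 0.0492 in 70% olive oil, so that the diets overlapped. The list median was 0.27 with the index as a covariate and lay between 0.27 and 0.69 over all 23 alternatives.

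**Figure D4:**
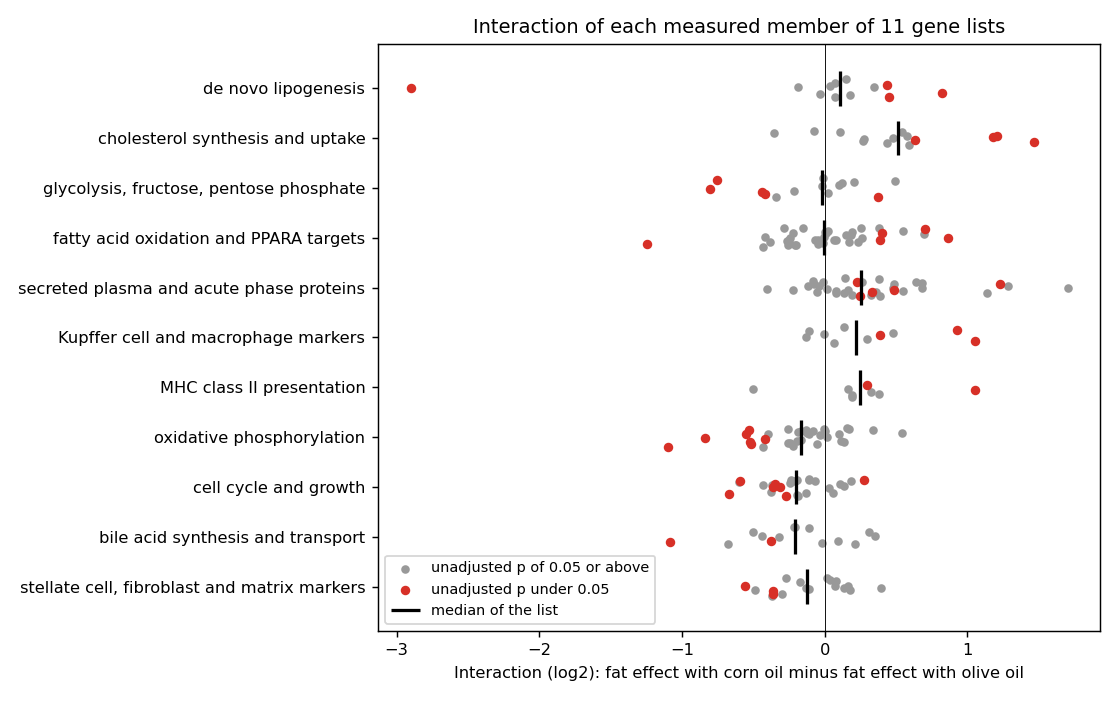
Interaction of each measured member of 11 gene lists (log2, horizontal axis), 1 point per gene, in red at an unadjusted p under 0.05, with a bar at the list's median. The median of cholesterol synthesis lies at 0.51 and those of oxidative phosphorylation and the cell cycle at -0.17 and -0.20, against -0.03 over all genes.

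Cyp7b1, the oxysterol 7-alpha-hydroxylase of the alternative bile acid pathway, had the second smallest p. It was 0.49, 0.14 and 0.29 with 5% corn oil, -0.04, 0.19 and -0.32 with 70% corn oil, -0.59, -0.87 and -0.68 with 5% olive oil, and 0.04, 0.04 and -0.06 with 70% olive oil. The 3 arrays of 5% olive oil were the lowest and the 70% diets overlapped. Cyp7b1 rose with fat from olive oil (log2 0.72, adjusted p = 0.0323), its fat effect with corn oil was -0.36 (adjusted p = 0.162), and the interaction was -1.08 ± 0.18 (-1.48 to -0.68, adjusted p = 0.168). With the index as a covariate it was -1.24. Cyp7a1, the rate-limiting enzyme of the main pathway, had fat effects of -0.74 (adjusted p = 0.043) and -0.72 (adjusted p = 0.132) and an interaction of -0.02 (-0.55 to 0.50), or 0.12 with the index, and its 2 probe sets gave 0.18 and -0.23. Baat, which conjugates bile acids, had -0.37 (-0.73 to -0.02), or -0.22 with the index. Of the 14 measured bile acid genes 10 were negative (71.4%, against 55.5% of all genes), with a median of -0.21, and the 2 at an unadjusted p under 0.05, both negative, are a share of 14.3% that is near the 11.9% of all genes.

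Among lipoprotein genes, Apobec1, which edits the mRNA of apolipoprotein B, fell with olive oil (log2 -0.97, adjusted p = 0.0122) and had a fat effect of -0.11 with corn oil. Its arrays of 70% olive oil, at -0.85, -0.36 and -0.38, were below all others. The interaction was 0.85 ± 0.22 (0.38 to 1.33, adjusted p = 0.229). Apoa1, the main protein of high-density lipoprotein, had an interaction of 0.60 (0.14 to 1.05), with neither fat effect passing.

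Ugt2b37, a glucuronosyltransferase, had the fifth smallest p. It was 0.69, 0.90 and 0.60 with 5% corn oil, 0.03, 0.19 and -0.84 with 70% corn oil, -0.59, -0.42 and -0.93 with 5% olive oil, and -0.09, -0.02 and 0.02 with 70% olive oil. The 5% diets lay at opposite ends with the 70% olive oil diet between them. It fell with corn oil (log2 -0.94, adjusted p = 0.044), its fat effect with olive oil was 0.62 (adjusted p = 0.367), and the interaction was -1.56 ± 0.31 (-2.23 to -0.89, adjusted p = 0.205). Cyp2d4, a drug-metabolising cytochrome, had -0.56 (-0.84 to -0.28, adjusted p = 0.205), and 20 of the 28 measured drug and steroid cytochromes were negative (71.4%, against 55.5% of all genes), with a median of -0.18. This list median was -0.272 with the index as a covariate and lay between -0.272 and -0.00645 over all 23 alternatives. Of these 28, 3 positive and 2 negative genes had an unadjusted p under 0.05 (17.9%, against 11.9%). Ugt2b37 and Cyp2d4 belong to families whose members can share probes.

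Adh1c, Cyp2c7 and Mat1a had positive interactions and were lower in every array of 5% corn oil than in any other array. Adh1c, an alcohol dehydrogenase, was -2.72, -2.02 and -1.11 there, -0.15, -0.04 and -0.58 with 70% corn oil, 0.23, 0.08 and 0.28 with 5% olive oil, and 0.26, 0.42 and -0.05 with 70% olive oil. The index of the 3 arrays of 5% corn oil was 1.5, 1.36 and 0.967, in the order in which Adh1c was lowest to highest. Adh1c rose with corn oil (log2 1.69, adjusted p = 0.0123), had a fat effect of 0.01 with olive oil and an interaction of 1.68 ± 0.42 (adjusted p = 0.229), or 1.10 with the index as a covariate. Cyp2c7, a retinoid and steroid hydroxylase, was -2.70, -2.25 and -1.3 with 5% corn oil. Its interaction was 1.46, or 0.81 with the index as a covariate. Mat1a, which makes S-adenosylmethionine in liver, was -2.30, -1.75 and -1.45 with 5% corn oil. Its interaction was 1.15, or 0.51 with the index as a covariate. In all 3 genes the array with the highest index was the lowest of its group. Whether the index accounts for these values was not tested. Aldh1a1, which makes retinoic acid, rose with both oils, by 1.55 and 1.04, with an interaction of 0.52 (0.10 to 0.94), or 0.64 with the index. Serpina7, the thyroxine carrier, rose by 2.37 with corn oil (adjusted p = 0.00259), had a fat effect of 1.14 with olive oil that did not pass, and an interaction of 1.22, or 1.70 with the index.

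Ctss, C1qb and RT1-DMb, genes of macrophages and antigen presentation, had their lowest mean in 70% olive oil. Ctss, cathepsin S, a lysosomal protease of antigen-presenting cells, was -0.33, -0.05 and 0.35 with 5% corn oil and 0.27, -0.07 and 0.05 with 70% corn oil. It was 0.58, 0.16 and 0.39 with 5% olive oil and -0.66, -0.56 and -0.51 with 70% olive oil. The 70% olive oil arrays were below the other 9, which overlapped. Ctss fell with olive oil (log2 -0.96, adjusted p = 0.0164), its fat effect with corn oil was 0.10, and the interaction was 1.05 ± 0.22 (0.57 to 1.54, adjusted p = 0.205). Without the third 5% corn oil array its adjusted p was 0.0447. C1qb and C1qc, complement chains made by macrophages, had 0.93 and 0.39, C1qc being named after its values were seen. C1qc had its lowest mean in 5% corn oil, at -0.16, against -0.04 in 70% olive oil. The 2 C1qb probe sets differed. X71127_at was lowest in 70% olive oil (-0.41), and X71127_g_at was lowest in 5% corn oil (-0.50, against -0.27 in 70% olive oil). RT1-DMb, which loads peptides on MHC class II, fell with olive oil (log2 -0.39, adjusted p = 0.0432) and had an interaction of 0.30 (0.06 to 0.53).

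Of the 10 measured macrophage markers 7 were positive (70%, against 44.5% of all genes), 3 of them at an unadjusted p under 0.05 (30%, against 11.9%), with a median interaction of 0.22. The mean of this list by array ran from -0.185 to 0.201 with 5% corn oil, from -0.157 to 0.115 with 70% corn oil, from 0.0538 to 0.296 with 5% olive oil and from -0.3 to -0.107 with 70% olive oil. For the 8 MHC class II genes, of which Ctss is in both lists, the mean was between -0.365 and -0.305 with 70% olive oil, below all 9 other arrays, which ran from -0.112 to 0.312. Of these 8 genes 7 were positive (87.5%, against 44.5% of all genes) and 2 had an unadjusted p under 0.05 (25%, against 11.9%), both positive. Their median interaction was 0.24, and single genes ran from -0.50 to 1.05. Fewer macrophages and less RNA per cell cannot be told apart in whole liver, and because values are centred it could not be judged which markers were near 0. The lists of hepatocyte (9 measured), endothelial (9), lymphocyte (14), bile duct (8) and blood cell (5) markers had medians of 0.23, -0.04, -0.09, -0.01 and -0.31. Their shares at an unadjusted p under 0.05 were 22.2%, 0%, 7.14%, 37.5% and 0%, against 11.9% of all genes. Adipose and mesothelial markers (7 measured) had 28.6% and a median of -0.18, and pancreas markers (13) had 15.4% and 0.05. A high share was thus not particular to macrophage markers. With the index as a covariate the hepatocyte median was 0.0050 and that of blood cells -0.124, and the part of cell composition was not tested.

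Ctsb, cathepsin B, a lysosomal protease, also had 1 of the 20 smallest p-values. It was -0.51, -0.53 and -0.15 with 5% corn oil and -0.16, 0.10 and 0.01 with 70% corn oil. It was 0.37, 0.60 and 0.72 with 5% olive oil and -0.07, 0.23 and -0.01 with 70% olive oil. The 5% olive oil arrays were above all others, and the 70% diets overlapped. The interaction was 0.90 ± 0.18 (0.50 to 1.3), with neither fat effect passing. Lgals3, galectin 3, had 0.87, Ifitm3, an antiviral membrane protein, 1.01, P2ry2, a nucleotide receptor, 1.04, and Serping1, the C1 inhibitor, 0.88, each with an adjusted p of 0.205 and no fat effect that passed. P2ry2 was -0.65, -0.35 and -0.59 with 70% olive oil, and corn minus olive at 70% fat was 0.65 (adjusted p = 0.0353). Ifitm3 was -1.05, -0.57 and -0.42 with 5% corn oil and 0.25, 0.27 and 0.64 with 5% olive oil, and the 70% diets, from -0.22 to 0.19, lay between them. Corn minus olive at 5% fat was -1.07 for Ifitm3 (adjusted p = 0.00111), and at 70% fat it was -0.05.

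Cavin3, a caveolar coat protein, had the third smallest p. It was -0.25, 0.01 and 0.09 with 5% corn oil, -0.03, 0.00 and -0.08 with 70% corn oil, 0.74, 0.46 and 0.76 with 5% olive oil, and -0.25, -0.01 and -0.28 with 70% olive oil. The 5% olive oil arrays stood above the other 9, which overlapped. Cavin3 fell with olive oil (log2 -0.83, adjusted p = 0.00389), and the interaction was 0.84 ± 0.16 (0.50 to 1.19). Ppp2r5a, a regulatory subunit of protein phosphatase 2A, was -0.59, -0.40 and -0.29 with 5% corn oil and 0.36, 0.21 and 0.53 with 70% corn oil. In olive oil its 6 arrays lay between -0.16 and 0.13. It rose with corn oil (log2 0.79, adjusted p = 0.00146), had a fat effect of 0.14 with olive oil and an interaction of 0.66 ± 0.14. Kat5, a histone acetyltransferase, and Wbp11, a splicing factor, also rose with corn oil, by 0.55 and 0.39, with fat effects of -0.09 and -0.07 with olive oil. Pgap2, which remodels lipid anchors of proteins, rose by 0.50 with corn oil and stood at 0.47, 0.71 and 0.40 in 70% corn oil, above all other arrays. Its interaction was 0.65, or 0.45 with the index as a covariate. Epb41l4b, a cytoskeletal linker (0.87), Prkar1a, a regulatory subunit of protein kinase A (0.63), Hpn, the membrane protease hepsin (0.71), and Dnpep, an aminopeptidase (0.48), were the remaining positive genes.

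Of the 20 genes with the smallest p-values, 16 were positive and 4 negative, and 17 had fat effects of opposite sign. The oils differed more at 5% fat in 16 and at 70% fat in 4. The difference between the oils passed at 5% fat in 16 of the 20 and at 70% fat in 5. The fat effect passed with corn oil in 9 and with olive oil in 5. These genes were chosen by the interaction, so the counts describe them and support nothing about other genes.

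Of the 33 measured oxidative phosphorylation genes 24 were negative (72.7%, against 55.5% of all genes), 7 of them and 0 positive genes at an unadjusted p under 0.05 (21.2%, against 11.9%), with a median of -0.17. The list median lay between -0.19 and -0.0515 over all 23 alternatives. The list mean by array was 0.174, 0.0391 and 0.0778 with 5% corn oil and -0.0287, -0.00284 and -0.307 with 70% corn oil. With olive oil it ran from -0.0425 to 0.063 at 5% fat and from -0.0893 to 0.0739 at 70% fat. Ndufa6, a complex I subunit, was 1.09, 0.63 and 0.71 with 5% corn oil and 0.41, 0.04 and -0.08 with 70% corn oil. In olive oil its 6 arrays lay between -0.19 and 0.07. The 5% corn oil arrays were above all others, and Ndufa6 fell with corn oil (log2 -0.69, adjusted p = 0.0222). Its interaction was -0.84 ± 0.19 (adjusted p = 0.205), from -0.50 and -1.18 on its 2 probe sets. Ndufa9, of the same complex, had -0.52, with neither fat effect passing. Cox6c, a cytochrome c oxidase subunit named after its values were seen, had -1.10, or -0.45 with the index as a covariate. Its 2 probe sets gave -0.08 and -2.13, so that the mean rests on 1 of them. Of the 26 cell cycle and growth genes 20 were negative (76.9%, against 55.5% of all genes), with a median of -0.20, and 6 negative and 1 positive gene had an unadjusted p under 0.05 (26.9%, against 11.9%). Ccnd1, cyclin D1, was 0.31, 0.25 and 0.29 with 5% corn oil, -0.04, 0.00 and -0.01 with 70% corn oil, -0.18, -0.16 and -0.28 with 5% olive oil, and 0.06, -0.14 and 0.32 with 70% olive oil. The 5% diets lay apart on opposite sides. Its interaction was -0.59 (-0.90 to -0.29, adjusted p = 0.208), with its 5 probe sets from -1.09 to -0.08. That of Ccnb1, cyclin B1, was -0.35, from -0.08 and -0.62 on its 2 probe sets.

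The 34 measured plasma protein genes had 26 positive interactions (76.5%, against 44.5% of all genes) and a median of 0.25, or 0.131 without the third 5% olive oil array. The 5 at an unadjusted p under 0.05, all positive, are a share of 14.7% that is near the 11.9% of all genes. The mean of this list by array was lowest in 5% corn oil, at -0.465, -0.201 and -0.326. C3, the central complement protein, had 0.33 (0.02 to 0.64), from 0.66 on 1 probe set and -0.0050 on the other. Of the 18 stellate cell and matrix markers 3 were negative and 0 positive at an unadjusted p under 0.05 (16.7%, against 11.9% of all genes), with a median of -0.12 that was 0.02 with the index as a covariate. Col1a1 and Col3a1, the chains of fibrillar collagens, had -0.56 and -0.37, with neither fat effect passing. For Col1a1 the value was -0.36 with the index, and 1 of its 4 probe sets gave -1.68 and the others -0.02, -0.32 and -0.21. Gpx3, plasma glutathione peroxidase, had -0.54, with neither fat effect passing. Dnajb9, a chaperone of the endoplasmic reticulum, fell by 1.01 with corn oil (adjusted p = 0.0103) and had a fat effect of -0.28 with olive oil and an interaction of -0.72, or -0.98 with the index as a covariate.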

How the data were processed

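Liver RNA pools were measured on 12 single-colour Affymetrix rat arrays, 3 for each diet. The authors deposited log2 values made with GCOS and RMA, per the submitters' processing notes, with no versions given. The base of the logarithm is not written in the table and was taken as 2. The median of 100% of probe sets over the 12 arrays was 0 within 1e-06, so each deposited value is a difference from a median, and neither a filter on low values nor signal over background could be had. There were 0 columns of other samples. The closest pair of arrays differed by 0.195 (root mean square).

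Of 8799 probe sets 59 controls were left out. The platform annotation gave 1 symbol to 7006, several to 308 and none to 1426. GRCr8 symbols replaced 6985 of the 7006 through the gene identifier and 21 kept the older one. Values of probe sets with the same symbol were averaged, which concerned 1565 genes. Some of the genes always looked up are not reported here.

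limma 3.58.1 in R 4.3.3 fitted 1 mean per diet over all 12 arrays with 8 residual degrees of freedom and eBayes without a trend. Two-sided p-values were adjusted by Benjamini-Hochberg over all genes, or all probe sets, within a contrast, with a threshold of 0.05. Intervals are 95% intervals of the moderated fit. The code was tested on simulated data.

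The comparison, the 37 lists (28 of pathways, 9 of cell type markers) and the rule for named genes were chosen with earlier results of these data known. The rule took up to 15 genes past the threshold in each direction, the smallest p-values up to 20 genes where fewer passed, 4 members of each list past the threshold or else the 2 with the smallest p, and a set of genes always looked up. The text names a part of these and 8 genes outside the rule, each said to be named after its values were seen. Lists are described by counts and medians.

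Alternatives were a second quantile normalization, centring each array, trend and robust moderation, robust moderation alone, array weights, the pool number as a replicate block, the 3'/5' index as a covariate, a 1.5-fold minimum, leaving out the 25% of features with the smallest SD, the median of a gene's probe sets and leaving out each array. Array weights per oil were added after seeing the data.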

Additional observations from a re-analysis of the deposited data

How the results depend on the processing

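Across settings the interaction stayed without a call for 1 value per gene, except that without the third 5% corn oil array 4 genes passed (Adh1c, Ctss, Cyp2c7 and Kars1, the lysyl-tRNA synthetase, named after its values were seen) and without the first 70% corn oil array 1 passed (Scd), a range of 0 to 4. Of probe sets, 2 passed with array weights, 1 without the 25% of smallest SD and 1 with weights per oil, and 0 to 10 with 1 array left out, 10 being without the third 5% corn oil array and 3 without the first 70% corn oil array. Genes at an unadjusted p under 0.05 fell from 565 to 132 with a 1.5-fold minimum, where smaller differences are left out, and to 398 with the index. They rose to 733 with array weights and ran from 380 to 721 with 1 array left out. The split of these genes was 279 positive and 286 negative, 330 and 223 with each array centred, 306 and 225 after the second quantile normalization, and 329 and 404 with array weights.

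The pool number as a replicate block gave 1 probe set, 0 genes and 575 genes at an unadjusted p under 0.05, with 122 and 24 genes for the fat effects with corn and olive oil. Deviations of arrays with the same number correlated from -0.157 to 0.227 over 18 pairs, 4 of them above 0.1, so the numbers were not taken to pair the samples.

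Genes with a fat effect with corn oil, 120 in all, came to 24 (second quantile normalization), 79 (trend and robust moderation), 75 (array weights), 23 (index) and 42 (weights per oil), and 39 to 219 with 1 array left out, the lowest without the second 5% and the highest without the first 70% corn oil array. With olive oil the 26 came to 49 (second quantile normalization), 17 (robust moderation), 94 (array weights), 30 (index) and 59 (weights per oil), and 11 to 37 with 1 array left out, the lowest without the first 70% olive oil array. The causes were not tested.

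Of 72 genes, 63 kept the sign of the interaction in every fit. Signs turned after the second quantile normalization for Acly (0.053), Srebf1 (-0.020), Pnpla3 (0.56), Eci1 (-0.038) and Cyp7a1 (0.23), with the index for Me1 (-0.33), Srebf1 (-0.20), Pnpla3 (0.51) and Cyp7a1 (0.12), with array weights for Pnpla3 (0.16), Acot1 (0.16) and Crot (0.43), and with centred arrays for Crot (0.023) and Cyp7a1 (0.0020). With 1 array left out the interaction ran from -0.20 to 0.39 for Me1, -0.17 to 0.41 for Srebf1, -0.40 to 0.47 for Pnpla3, -0.0060 to 0.081 for Scd2, -1.06 to 0.29 for Acot1, -0.38 to 0.31 for Crot and -0.19 to 0.11 for Cyp7a1.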
